A study of Homo sapiens with 16 samples.

Results

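The data described here are the HuR immunoprecipitates and the IgG immunoprecipitates of U2OS cells that had been transfected with miR-100HG siRNA, 8 of the 16 arrays of the study. U2OS is a human osteosarcoma cell line. The members were chosen by antibody and siRNA alone: 4 arrays of RNA recovered with an antibody to HuR and 4 of RNA recovered with IgG, all from cells treated for 48 h with the siRNA meant to deplete the long noncoding RNA lnc-MIR100HG. The other 8 arrays are the same pair of immunoprecipitates from cells with control siRNA, and they are used only to set the HuR enrichment of named genes beside that in control cells. All groups came from cells described as synchronized, by nocodazole or by a double thymidine block and release, and the labels do not say which agent or which cell cycle phase a sample had. In each condition 1 siRNA was used, and the treatment notes spell its target as mIR-110HG. The study's design calls the samples of a group biological replicates. No sample of total or unbound RNA was used here, so more of a transcript in the cells, more of it bound to HuR and more RNA recovered cannot be told apart.

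HuR, the product of ELAVL1, is an RNA-binding protein that recognises uridine-rich and AU-rich stretches, mostly in untranslated regions and introns, and is known for stabilising mRNAs of growth, stress and cytoskeletal genes. In an RNA immunoprecipitation, transcripts that are bound to the protein are recovered with its antibody, and IgG shows what sticks to the beads without it. MIR100HG is the host transcript of a microRNA cluster, and the study asked how its RNA bears on the binding of HuR to target mRNAs. The comparison of HuR with IgG under MIR100HG siRNA asks which transcripts were recovered with HuR when that RNA was targeted.

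Signal was low on all 8 arrays, and HuR replicate 2 stood apart. A probe counts as detected where its deposited detection p, its comparison with the negative controls of the same array, is under 0.01, which 472 of the 47231 probes would reach by chance. HuR replicates 1 to 4 had 563, 2592, 824 and 761 detected probes, and IgG replicates 1 to 4 had 689, 553, 692 and 1015. The means were 1185 ± 945 in the HuR arrays and 737 ± 196 in the IgG arrays (SD, n = 4 each), a difference that did not pass a two-sided exact permutation test (p = 0.514, with 0.0286 the smallest p that 4 against 4 allows). Without HuR replicate 2 the HuR mean was 716 ± 136 (SD, n = 3). Of the probes detected on HuR replicate 2, 1759 were detected on none of the other 7 arrays.

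HuR replicate 2 was also the brightest array. Its highest intensity was 6370, while HuR replicates 1, 3 and 4 reached 314 to 334 and the IgG arrays 296 to 339. Its median probe, at 50, was as dim as that of HuR replicate 1, so the extra light lay in a minority of probes. Median intensities were 50, 50, 48 and 48 on HuR replicates 1 to 4 and 44, 42, 44 and 45 on IgG replicates 1 to 4, so the background of the HuR arrays was higher on every array. The part of this shift in the results was not tested.

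**Figure D1:**
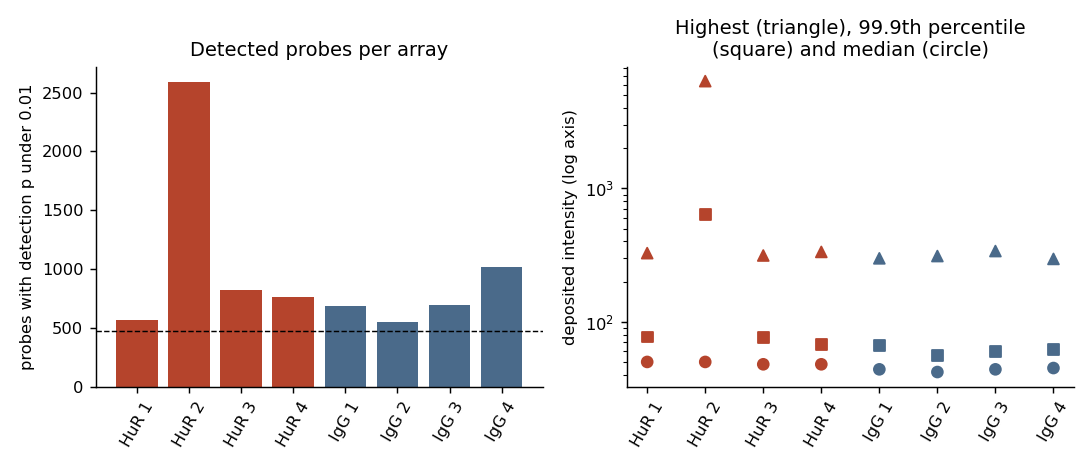
Left, bars give the number of probes with a detection p under 0.01 on each of the 8 arrays, HuR replicates before IgG replicates, and the dashed line marks the 472 probes that chance gives. Right, the deposited intensity on a log axis, with the highest probe as a triangle, the level that 1 probe in 1000 exceeds as a square and the median probe as a circle. HuR replicate 2 reached 2592 detected probes and an intensity of 6370, with its median at 50.

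Array pairs did not all resemble their own group most. Over the 485 genes and probes tested, the log2 intensities of HuR replicates 1 and 3 correlated at 0.894, those of HuR replicates 2 and 4 at 0.0390. HuR replicate 4 correlated at 0.655 to 0.752 with the IgG arrays and at 0.628 with HuR replicate 1. These correlations run across genes, which are not independent replicates, and the points share the probes' own brightness. Intensities are therefore given array by array, and differences of called genes also without HuR replicate 2.

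Neither the siRNA's target nor the immunoprecipitated protein's mRNA could be checked. The MIR100HG probe had intensities of 54, 54, 47 and 50 on HuR replicates 1 to 4 and 43, 41, 45 and 45 on IgG replicates 1 to 4, with a lowest detection p of 0.147. The ELAVL1 probe lay at 43, 41, 49 and 42 on the HuR arrays and at 41, 46, 41 and 42 on the IgG arrays, with a lowest detection p of 0.117. Both probes were in the range of the array background, so these arrays show nothing of the depletion.

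Markers of the labelled cell type were mostly not detected in this RNA. None of the 7 osteoblast-lineage markers with a probe, RUNX2, COL1A1 and SPARC among them, was detected on any of the 8 arrays, and their summed intensity ran from 470 to 506 on the HuR arrays and from 416 to 445 on the IgG arrays. Of 4 mesenchymal markers, CDH2 was detected on 3 HuR arrays and S100A6 on 1, with VIM and FN1 on none. Their sums were 331 to 1022 on the HuR arrays and 284 to 313 on the IgG arrays. Among markers of other cells, 1 of 5 epithelial (KRT18), 1 of 4 blood (LYZ) and 0 of 2 endothelial markers were detected on any array, with EPCAM, CDH1, PTPRC, CD74 and HBB on none. Their sums were 411 to 435, 459 to 503 and 89 to 92 on the HuR arrays, against 347 to 375, 415 to 440 and 79 to 83 on the IgG arrays.

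Probes were kept where at least 3 arrays of either antibody had detected them, which left 485 features, 277 named genes and 208 probes without a gene name here. Of these, 233 were kept through the HuR arrays alone, 91 through the IgG arrays alone and 161 through both. Keeping a feature through the HuR arrays alone favours those brighter there: 200 of the 233 had a positive HuR minus IgG difference, as had 1 of the 91 kept through IgG alone and 54 of the 161 kept through both. Intensities were background corrected and quantile normalized, and HuR was compared with IgG by limma with Benjamini-Hochberg adjustment over all 485, at an adjusted p under 0.05. Differences are HuR minus IgG on the normalized log2 scale.

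Under MIR100HG siRNA, 10 features (2.06% of those tested) were higher in the HuR immunoprecipitates and 1 (0.206%) was lower, 11 in all (2.27%), with 90 at an unadjusted p under 0.05. The higher set held 8 named genes: JUND, ACTB, ANXA2P2, ORC6, ITGB1, FAM177A1, ITIH5 and ZNF674. The lower one was RPS29. Of the 10, 9 had been kept through the HuR arrays alone and ACTB through both antibodies. On all 10, HuR replicate 2 was the brightest of the 8 arrays and HuR replicate 4 the dimmest HuR array. Over all 485 features, HuR replicate 2 was the brightest on 219 and HuR replicate 4 the dimmest HuR array on 212.

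JUND encodes a subunit of the transcription factor AP-1, and its mRNA is in the list of HuR targets from the literature used here. Its intensity was 142, 1789, 136 and 65 on HuR replicates 1 to 4 and 42, 40, 44 and 47 on IgG replicates 1 to 4. All 4 HuR arrays lay above all 4 IgG arrays, and no IgG array detected it at p under 0.05. The difference was 3.56 ± 0.52 (SE; limma, adjusted p = 0.00256). Because IgG gives only a bound, the normalized mean of JUND over the 4 HuR arrays was at least 7.58-fold higher. Each IgG array took the higher of its own value and the lowest value of a detected probe. This bounds the IgG side only, not the spread among the HuR arrays. The bound was at least 2.00-fold without HuR replicate 2, where the difference was 1.43 (limma, adjusted p = 0.0253).

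ACTB encodes beta-actin, the main cytoplasmic actin, another target of HuR in the literature. Its representative probe read 156, 2756, 139 and 69 on the HuR arrays and 53, 52, 54 and 54 on the IgG arrays. The HuR arrays were all higher, replicate 4 by the least, and the difference was 3.36 ± 0.43 (SE; limma, adjusted p = 0.00179). Without HuR replicate 2 it was 1.26 (limma, adjusted p = 0.0432). A second ACTB probe read 180, 4382, 184 and 61 on the HuR arrays and 49, 43, 47 and 49 on the IgG arrays. With JUND it made up the 2 probes of the array that all 4 HuR arrays detected at p under 0.01 and no IgG array at p under 0.05, and 0 probes showed the reverse. The third ACTB probe was not detected, at 47 to 54 on the HuR arrays.

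ORC6 encodes a subunit of the origin recognition complex, which marks the sites where DNA replication begins. It had intensities of 89, 1326, 78 and 70 with HuR and 52, 43, 52 and 50 with IgG. Its adjusted p was the smallest of the comparison (limma, 3.97e-04), at a difference of 2.86 ± 0.29 (SE). Leaving out HuR replicate 2 gave 0.85 (limma, adjusted p = 0.00506). Its arrays did not overlap, and HuR replicates 1, 3 and 4 lay close together. The other ORC6 probe was not kept, at 51, 45, 47 and 47 with HuR and 43, 42, 46 and 41 with IgG. Its difference was -0.010.

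ANXA2P2 is a processed pseudogene of annexin A2, a calcium-dependent membrane-binding protein, and its probe may share signal with the parent mRNA. The probe read 126, 2632, 132 and 80 in the HuR arrays and 65, 47, 51 and 53 in the IgG arrays. The difference was 3.25 ± 0.47 (SE; limma, adjusted p = 0.00256), and 1.20 without HuR replicate 2 (limma, adjusted p = 0.00804). IgG replicate 1 was the highest IgG array and still lay under HuR replicate 4.

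ITGB1 encodes integrin beta-1, a cell surface receptor for the extracellular matrix. It read 104, 1849, 116 and 60 with HuR and 45, 43, 54 and 47 with IgG. The arrays did not overlap, but HuR replicate 4 was only just above IgG replicate 3. The difference of 2.75 ± 0.63 (SE; limma, adjusted p = 0.0480) passed in 1 of the 8 fits that each left out 1 array, the fit without HuR replicate 4, where it was 3.67. Without HuR replicate 2 it was 0.94 (limma, adjusted p = 0.0617). The other 3 ITGB1 probes were not kept, with at most 54 on any HuR array.

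Next came 3 genes with intensities of 65 to 99 on HuR replicates 1, 3 and 4. ITIH5 belongs to the inter-alpha-trypsin inhibitor heavy chains, which bind hyaluronan in the matrix, and read 77, 1896, 99 and 69 with HuR and 59, 46, 49 and 50 with IgG (difference 2.53 ± 0.46 SE; limma, adjusted p = 0.0118). FAM177A1 read 89, 1780, 91 and 71 with HuR and 60, 43, 56 and 48 with IgG (2.56 ± 0.44 SE; limma, adjusted p = 0.00831). ZNF674, a zinc finger protein of the transcription factor type, read 86, 1388, 87 and 65 with HuR and 56, 44, 49 and 51 with IgG (2.46 ± 0.42 SE; limma, adjusted p = 0.00796). In each of these 3 genes the groups did not overlap, and the difference without HuR replicate 2 was 0.74 for ITIH5, 0.79 for FAM177A1 and 0.69 for ZNF674, all past the threshold (limma, adjusted p = 0.0472, 0.0486 and 0.0472). The other probes of ITIH5 (differences of -0.030 to -0.003) and of FAM177A1 (-0.020 and 0.031) were not kept. The probes ILMN_2233279 and ILMN_3249230, without a gene name here, were also higher, by 2.46 and 2.05.

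**Figure D2:**
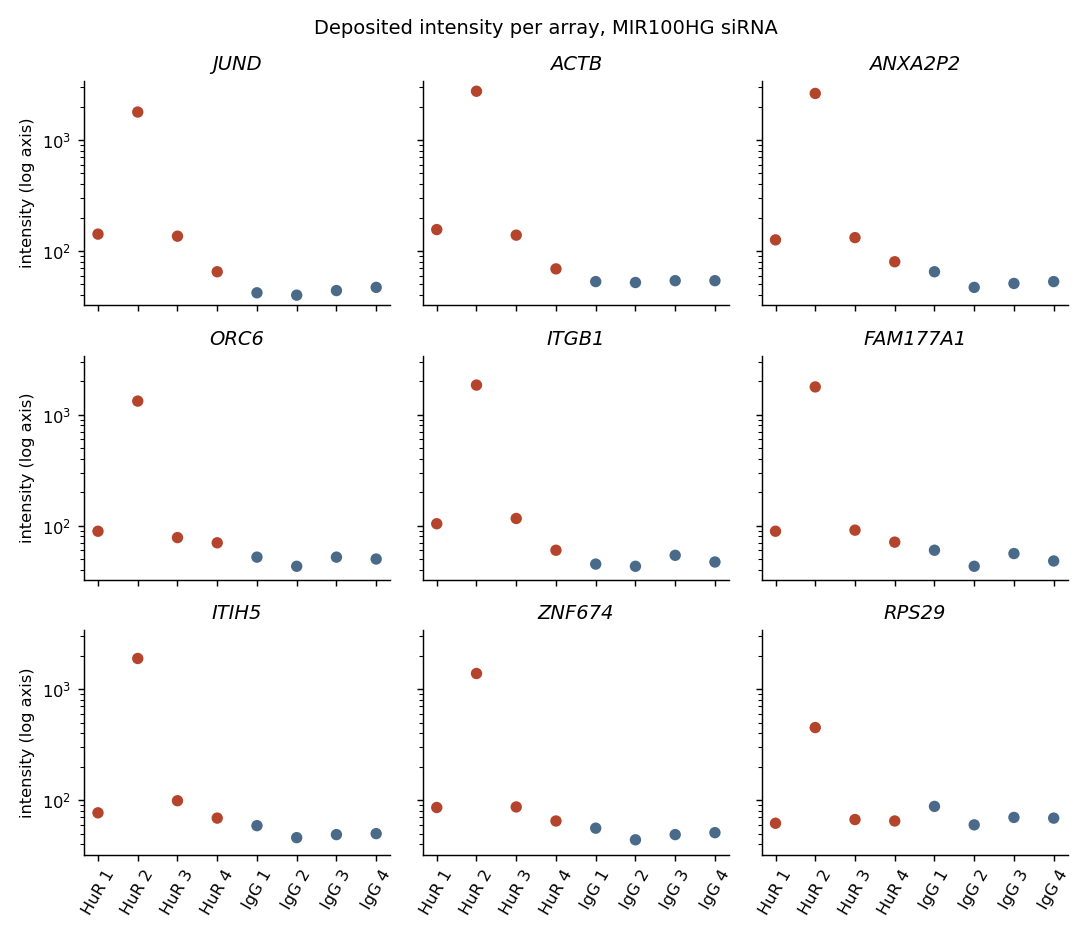
Each panel gives the deposited intensity of a called gene on a log axis, with HuR replicates 1 to 4 left of IgG replicates 1 to 4. For the genes called higher, HuR replicate 2 stands above every other array, as at 1789 for JUND, which had 65 to 142 on HuR replicates 1, 3 and 4, and HuR replicate 4 lies nearest to IgG.

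RPS29, a protein of the small ribosomal subunit, was the only feature that fell. Its intensities were 62, 452, 67 and 65 in the HuR arrays and 88, 60, 70 and 69 in the IgG arrays. HuR replicate 2 was the brightest array here too, while the other 3 HuR arrays overlapped with IgG in intensity. On the normalized scale, where each array has the same distribution, all HuR arrays lay below all IgG arrays, with a difference of -2.47 ± 0.36 (SE; limma, adjusted p = 0.00256). The direction turned under the other scalings: the difference was 0.46 with no scaling between arrays and 0.23 with median centring. Without HuR replicate 2 it was negative throughout, at -1.01 after quantile normalization (limma, adjusted p = 0.00302), -0.65 with median centring (limma, adjusted p = 0.0295) and -0.49 with no scaling (limma, adjusted p = 0.0739). A second RPS29 probe gave -2.62 on the normalized scale, from 62, 347, 61 and 51 with HuR and 86, 55, 65 and 73 with IgG. The RPS29 probes ILMN_2298818 and ILMN_2415722 were not kept and did not fall, at 0.005 and 0.012. ILMN_2415722 read 57, 110, 49 and 51 with HuR and 52, 44, 50 and 52 with IgG.

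Over the 8 arrays, calls depended on how the arrays were scaled to each other. With median centring 0 features passed (51 at an unadjusted p under 0.05, limma), and with no scaling 51 passed, all higher, of which 0 were among the 10. The differences of the 8 named genes stayed positive under both. With no scaling the median over all 485 features moved to 0.25, against 0.049 after quantile normalization, and the 51 features were steady ones: on all 51, HuR replicate 2 lay within 20% of the mean of the other 3 HuR arrays. The same held for 381 of the 485 tested features and for 0 of the 10 called after quantile normalization. The loss of the called features was seen only in fits that held HuR replicate 2. Once that array was dropped, median centring left all 11 of them past the threshold (limma). Unscaled values left 10 of the 11, all but RPS29.

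Non-overlap of the antibodies depended on the scale as well. On normalized values, all HuR arrays lay above all IgG arrays for 29 features (5.98%) and below for 20 (4.12%). As intensity over the array's median, with no other processing, 136 features (28%) had the HuR arrays above and 1 (0.206%) below.

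Leaving out HuR replicate 2 gave smaller differences for the called genes. Of 334 features then kept, 10 were higher (2.99%) and 2 lower (0.599%). All 11 features called with 8 arrays were among the 334, and 9 of them were still called, with ITGB1 and ILMN_3249230 no longer past the threshold. CLUAP1 was among 3 features called only then, at 0.71 (limma, adjusted p = 0.0125), against 0.92 ± 0.28 (SE; limma, adjusted p = 0.0899) with all 8 arrays. CLUAP1 takes part in transport within cilia, and its intensities were 204, 4773, 207 and 109 with HuR and 95, 60, 70 and 78 with IgG. Leaving out HuR replicate 4 instead gave 46 higher and 4 lower.

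**Figure D3:**
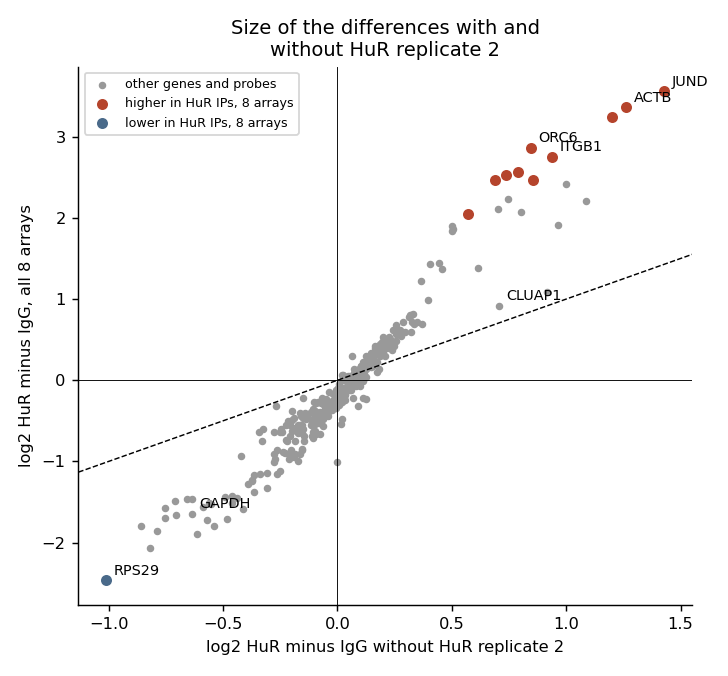
Each point is a gene or probe of the 334 that were tested both ways, with the log2 HuR minus IgG difference without HuR replicate 2 on the x axis and with all 8 arrays on the y axis. The genes called higher lie above the dashed line of equal values, as JUND at 1.43 without HuR replicate 2 and 3.56 with it, and RPS29 lies below it at -1.01 and -2.47.

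The brightest transcripts of HuR replicate 2 were also brighter on HuR replicates 1 and 3 than on any IgG array. The 10 brightest named genes of that array were LAIR1, CLUAP1, ACTB, SLC7A5P2, F2R, ANXA2P2, ITIH5, ITGB1, POTEF and JUND, chosen by that intensity and so described without a test. On these, the intensity above the array's median was 18.9 (JUND) to 68.4 (ITIH5) times that of HuR replicate 1. HuR replicate 4 had less than HuR replicate 1 on each of them.

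LAIR1, an inhibitory receptor known from leukocytes, was the brightest, with 248, 6370, 257 and 123 in the HuR arrays and 114, 60, 74 and 69 in the IgG arrays. Its difference of 1.09 ± 0.35 (SE) did not pass (limma, adjusted p = 0.109), although every HuR array lay above every IgG array. Of the 4 blood cell markers, LYZ was detected on 1 HuR array and PTPRC, CD74 and HBB on none; their part in the LAIR1 signal was not tested. F2R, a thrombin receptor, read 128, 3343, 139 and 91 with HuR and 78, 50, 67 and 70 with IgG, at 1.38 ± 0.68 (SE; limma, adjusted p = 0.293). The pseudogene SLC7A5P2, related to the amino acid transporter gene SLC7A5, read 148, 3720, 158 and 86 with HuR and 76, 51, 62 and 64 with IgG, at 1.91 ± 0.56 (SE; limma, adjusted p = 0.0866). In all 3 the lowest HuR array was replicate 4 and the highest IgG array was replicate 1. The differences without HuR replicate 2 were 0.91 for LAIR1, 0.61 for F2R and 0.96 for SLC7A5P2 after quantile normalization, none past the threshold. With median centring they were 1.63, 1.03 and 1.27 (limma, adjusted p = 0.0163, 0.0226 and 0.0170). With no scaling they were 1.79, 1.19 and 1.43 (limma, adjusted p = 0.0147, 0.0187 and 0.0147). Among the 334 features of these fits, 19 were higher with median centring and 62 with no scaling.

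POTEF encodes a protein with an actin-like region, so its probe may share signal with actin mRNAs. It read 104, 1817, 96 and 49 in the HuR arrays and 46, 44, 40 and 43 in the IgG arrays, and no IgG array detected it. HuR replicate 4 was in the IgG range on the normalized scale. Its bound on the normalized mean, HuR replicate 2 included, was 3.98-fold higher with HuR. The difference of 2.62 ± 0.70 (SE) did not pass (limma, adjusted p = 0.0784). That difference was 0.82 without HuR replicate 2, where POTEF no longer met the detection filter and had no test.

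Genes of the actin cytoskeleton were represented by 7 tested members of 36. ACTB rose and the other 6 did not pass, 1 of 7 beside the 2.06% of all tested features. Of the 7, 5 were kept through the HuR arrays alone and 2 through both antibodies, so the high values of the members partly chose them. Their median difference was 1.56, against 0.049 over all 485, and 0.40 without HuR replicate 2, against 0.08 over all 485. TMSB4X, which sequesters actin monomers, read 80, 1237, 98 and 55 with HuR and 48, 48, 48 and 50 with IgG, with a difference of 2.21 ± 0.60 (SE; limma, adjusted p = 0.0821). ROCK2, a kinase that acts on myosin, read 74, 1164, 77 and 54 with HuR and 46, 40, 46 and 51 with IgG, at 1.99 ± 0.55 (SE; limma, adjusted p = 0.0861). Profilin, PFN1, read 76, 732, 68 and 48 with HuR and 52, 40, 44 and 50 with IgG, at 1.56 ± 0.51 (SE; limma, adjusted p = 0.112). In each of the 3, HuR replicates 1, 2 and 3 lay above all IgG arrays. Leaving out HuR replicate 2 gave 0.62 for TMSB4X, 0.56 for ROCK2 and 0.40 for PFN1, and none of the 3 met the detection filter. The least changed was CNN2, a calponin, at -0.09 ± 0.55 (SE), with HuR intensities of 65 to 72 and IgG intensities of 53 to 62.

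Adhesion and matrix genes had 2 tested members of 38, ITGB1, which rose, and CDH2, which did not pass, 1 of 2 beside the 2.06% of all tested features. Both were kept through the HuR arrays alone. CDH2 encodes N-cadherin. It read 84, 706, 75 and 44 in the HuR arrays and 39, 43, 40 and 37 in the IgG arrays. Its bound on the normalized mean, HuR replicate 2 included, was 2.54-fold higher with HuR (difference 2.04 ± 0.57 SE; limma, adjusted p = 0.0861). Every HuR intensity was above every IgG intensity, though HuR replicate 4 by 1 unit, and on the normalized scale the groups overlapped. CDH2 was at 0.67 without HuR replicate 2 and no longer met the filter.

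Of 27 genes of G1/S transition and DNA replication 3 were tested, all kept through the HuR arrays alone. ORC6 rose, 1 of 3 beside the 2.06% of all tested features. CCND2, cyclin D2, which drives passage through G1, read 89, 1132, 68 and 44 with HuR and 43, 42, 40 and 44 with IgG. Its bound on the normalized mean, HuR replicate 2 included, was 2.63-fold higher with HuR (difference 2.05 ± 0.63 SE; limma, adjusted p = 0.0902). PCLAF, which binds the replication clamp PCNA, read 98, 1774, 107 and 63 with HuR and 66, 40, 42 and 55 with IgG (2.23 ± 0.69 SE; limma, adjusted p = 0.0902). For both genes HuR replicate 4 lay among the IgG arrays. With HuR replicate 2 left out the difference was 0.75 for PCLAF (limma, adjusted p = 0.157) and 0.62 for CCND2, which no longer met the filter. Of 29 G2/M and mitosis genes 2 were tested and 0 passed: CCNA2, cyclin A2 and a HuR target in the literature, at 0.14 ± 0.40 (SE), and PTTG1, securin, at -0.25 ± 0.35 (SE). No member of the lists of 23 p53 pathway and 16 histone genes was kept.

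CCNA2 showed what a steady probe looked like on these arrays. It read 65, 64, 64 and 65 with HuR and 58, 53, 53 and 52 with IgG, so the HuR arrays were all higher in intensity and HuR replicate 2 did not stand out. After normalization the groups overlapped. HNRNPK, a poly(C)-binding ribonucleoprotein, did likewise at 70, 64, 74 and 70 with HuR and 56, 56, 56 and 59 with IgG (0.30 ± 0.55 SE; limma, adjusted p = 0.795).

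Splicing and RNA-binding proteins had 3 tested members of 45, and 0 passed. Besides HNRNPK these were PCBP2 and SRSF6. PCBP2, another poly(C)-binding protein, read 107, 1116, 86 and 50 with HuR and 53, 43, 44 and 39 with IgG, a difference of 2.40 ± 0.67 (SE; limma, adjusted p = 0.0861). SRSF6, a splicing factor, read 64, 471, 66 and 52 with HuR and 47, 46, 49 and 47 with IgG, at 0.99 ± 0.41 (SE; limma, adjusted p = 0.219). HuR replicate 4 of PCBP2 lay inside the IgG range. PCBP2 was at 0.75 and SRSF6 at 0.28 without HuR replicate 2, and neither then met the filter.

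Genes of cytosolic ribosomal proteins lay on the other side after normalization. Of 83 members 6 were tested, RPS29 fell and the other 5 did not pass, 1 of 6 beside 0.206% of all tested features. Of the 6, 3 were kept through the IgG arrays alone and 3 through both antibodies. Over all features, 1 of 91 kept the first way and 54 of 161 kept the second had a positive difference. The filter thus favoured negative values for these members. All 6 differences were negative, with a median of -1.56, against 0.049 over all 485. The median of the 6 was 0.36 with no scaling and 0.13 with median centring, against 0.25 and 0.020 over all 485. Without HuR replicate 2 the median was -0.52 after quantile normalization, and over the members then kept it was -0.32 with no scaling and -0.48 with median centring. RPS29, RPL37A and RPL41 were then lower with median centring (-0.65, -0.51 and -0.72; limma, adjusted p = 0.0295, 0.0382 and 0.0466). In that fit 10 of 334 features were lower, among them the translation factor EEF1A1 (-0.51; limma, adjusted p = 0.0479). RPL37A read 66, 129, 54 and 56 with HuR and 62, 54, 64 and 61 with IgG, at -1.72 ± 0.43 (SE; limma, adjusted p = 0.0686). RPL27 read 61, 117, 61 and 56 with HuR and 66, 52, 55 and 67 with IgG, at -1.42 ± 0.55 (SE; limma, adjusted p = 0.183). RPL41 read 59, 250, 57 and 49 with HuR and 75, 50, 56 and 70 with IgG, at -1.70 ± 0.71 (SE; limma, adjusted p = 0.220). On HuR replicate 2 each of these 3 was brighter than on any IgG array, while HuR replicates 1, 3 and 4 overlapped with IgG. RPS24 and RPLP2 had -0.60 ± 0.70 and -0.32 ± 0.80 (SE).

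**Figure D4:**
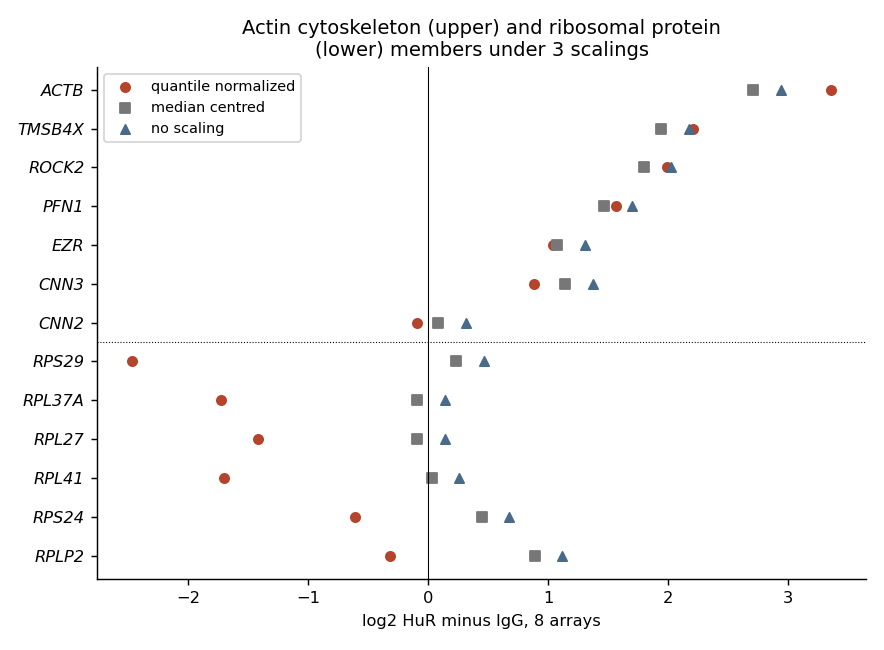
Log2 HuR minus IgG differences over the 8 arrays for the 7 tested members of the actin cytoskeleton list (upper) and the 6 of the ribosomal protein list (lower), with a circle for quantile normalized, a square for median centred and a triangle for unscaled values. The median of the actin members is 1.56 after quantile normalization and 1.70 with no scaling, and that of the ribosomal members -1.56 and 0.36.

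In the lists of glycolysis, translation factors, oxidative phosphorylation, noncoding RNAs and tubulins, the 1 tested member of each did not pass with all 8 arrays. GAPDH, the glycolytic enzyme, read 117, 119, 100 and 101 with HuR and 107, 83, 106 and 109 with IgG, the groups overlapping, and its difference of -1.65 ± 0.65 (SE; limma, adjusted p = 0.194) was 0.05 with no scaling. EEF1A1, a translation elongation factor, had -0.93 ± 0.41 (SE; limma, adjusted p = 0.240), and ATP5F1B, a subunit of ATP synthase, -0.69 ± 0.50 (SE; limma, adjusted p = 0.501). RN7SL1, the RNA of the signal recognition particle, read 80, 1062, 71 and 60 with HuR and 54, 48, 48 and 48 with IgG, at 1.84 ± 0.48 (SE; limma, adjusted p = 0.0784). All its HuR arrays were brighter than its IgG arrays, and without HuR replicate 2 the difference was 0.50 (limma, adjusted p = 0.0943). The tubulin pseudogene TUBA3FP had 2.10 ± 0.63 (SE; limma, adjusted p = 0.0899).

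With 1 feature past the threshold on the lower side, the next by p are given as values. PRICKLE2, of planar cell polarity, had -1.71 ± 0.51 (SE), GPRC5C, an orphan receptor, -1.14 ± 0.33 (SE), FAM156B -1.16 ± 0.42 (SE), RHBDL3 -0.94 ± 0.36 (SE) and RTN1, a reticulon of the endoplasmic reticulum, -0.91 ± 0.33 (SE). Their adjusted p (limma) ran from 0.0866 for GPRC5C to 0.183 for RHBDL3. Their intensities were 52 to 71 on the HuR arrays and 51 to 67 on the IgG arrays, not far above the array medians.

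Across the list of 36 HuR targets from the literature, 35 had a probe and 3 were tested. JUND and ACTB rose and CCNA2 did not pass, 2 of 3 beside 2.06% of all tested features. JUND and CCNA2 were kept through the HuR arrays alone, which favours higher values there. It was also the only tested member of 17 immediate early and AP-1 genes. The other 32 targets with a probe did not reach detection on 3 arrays of either antibody, so at this signal their recovery with HuR was not measurable.

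The same genes were enriched with HuR under control siRNA. In a fit over all 16 arrays, each of the 10 features called higher under MIR100HG siRNA was also higher under control siRNA, where 54 of the 485 (11.1%) were higher and 20 (4.12%) lower. JUND had a HuR minus IgG difference of 3.33 with MIR100HG siRNA and 2.32 ± 0.38 (SE) with control siRNA in this fit. ANXA2P2 had 3.06 with MIR100HG siRNA and 1.47 ± 0.35 (SE) with control siRNA. ITGB1 ran the other way on this normalized scale, at 2.60 with MIR100HG siRNA and 4.02 ± 0.49 (SE) with control siRNA.

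None of these differences between the siRNAs passed the test. Over the 485 features, 0 passed the interaction of antibody and siRNA (limma, adjusted p under 0.05; 24 at an unadjusted p under 0.05). The difference of enrichments, MIR100HG minus control siRNA, was 1.59 ± 0.49 (SE) for ANXA2P2, 1.01 ± 0.53 (SE) for JUND, 0.91 ± 0.35 (SE) for ORC6 and -1.42 ± 0.69 (SE) for ITGB1, each at an adjusted p of 0.687 (limma). RPS29 was lower with HuR under both siRNAs, with a difference of -0.20 ± 0.37 (SE) between them. A p above the threshold does not show that the enrichments were alike.

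Intensities show the ITGB1 values behind that comparison. In the HuR arrays it read 104, 1849, 116 and 60 with MIR100HG siRNA and 525, 773, 580 and 247 with control siRNA, so 3 of the 4 MIR100HG siRNA arrays lay below all control siRNA arrays and HuR replicate 2 lay above them. In the IgG arrays it read 45, 43, 54 and 47 with MIR100HG siRNA and 52, 54, 48 and 55 with control siRNA. For CLUAP1 the HuR arrays likewise gave 204, 4773, 207 and 109 with MIR100HG siRNA and 728, 901, 986 and 506 with control siRNA. ANXA2P2, whose normalized difference was larger with MIR100HG siRNA, had the same pattern in intensity. Its HuR arrays read 126, 2632, 132 and 80 with MIR100HG siRNA and 347, 489, 494 and 287 with control siRNA. JUND was more alike, at 142, 1789, 136 and 65 with MIR100HG siRNA and 131, 194, 183 and 127 with control siRNA. The highest intensity was 1014, 1240, 1420 and 770 on HuR replicates 1 to 4 with control siRNA. With MIR100HG siRNA it was 327, 6370, 314 and 334, and the part of this in the comparison was not tested.

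Without HuR replicate 2 of the MIR100HG siRNA group, 2 of the 485 passed the interaction, with 84 at an unadjusted p under 0.05. They were RTEL1, a helicase that protects telomeres, and the unnamed probe ILMN_1860084. RTEL1 had HuR intensities of 163, 140, 126 and 110 and IgG intensities of 113, 101, 131 and 116 with MIR100HG siRNA. With control siRNA its HuR intensities were 118, 138, 113 and 118 and its IgG intensities 157, 154, 142 and 135. The difference of enrichments was 1.79 without that array (limma, adjusted p = 0.0174) and 1.28 ± 0.83 (SE; limma, adjusted p = 0.716) with it.

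**Figure D5:**
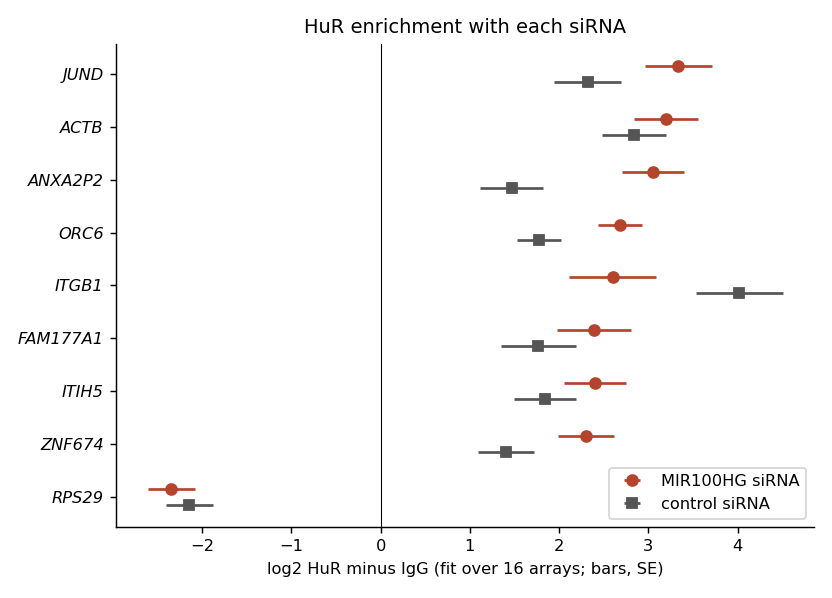
Log2 HuR minus IgG differences of the named genes called over the 8 arrays, from the fit over 16 arrays, as circles for MIR100HG siRNA and squares for control siRNA with bars for the SE. Each gene has the same sign under both siRNAs, as JUND at 3.33 and 2.32 and ITGB1 at 2.60 and 4.02, and no difference between the siRNAs passed the test.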

How the data were processed

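Per the labels' protocols, immunoprecipitated RNA was reverse transcribed from oligo-dT, amplified and labelled for Illumina bead arrays, so transcripts without a poly(A) stretch are poorly covered. The deposited intensity values are linear, not normalized between arrays, and the submitters' processing notes name GenomeStudio 2011.1. A deposited detection p-value stands beside each, per the file headers. The deposited score in the series' value table behaves as a z-score of each array; it served as an alternative, without IgG replicate 1, whose column correlated at 0.0066 with its own intensities.

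The platform annotation gives 1 gene symbol to 30113 of the 47231 probes, several to 8 and none here to 17110. For 30074 probes the symbol was updated through gene identifiers and 39 were kept as given.

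From the 8 arrays, values were corrected for background and quantile normalized by neqc (limma 3.58.1, R 4.3.3; offset 16, negative controls modelled through detection p-values). A detection p under 0.01 on at least 3 arrays of either antibody kept 488 probes. For each gene the kept probe with the highest average normalized log2 value was used, which left 485. The test was lmFit and eBayes on the antibody with Benjamini-Hochberg adjustment; the interaction with the siRNA used 4 group means over 16 arrays. The fit of the antibody over the 8 arrays was tested on simulated data in which no array stood apart. The interaction fit was not tested in this way. Figures were drawn with matplotlib 3.10.9.

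Named were the called genes (up to 8 per direction by p where fewer passed), those detected with HuR and not with IgG, the 10 brightest on HuR replicate 2, up to 4 tested members of each of 17 lists, MIR100HG, ELAVL1 and genes past the interaction. Clone-type symbols and unnamed probes were passed over; the unnamed probes given were chosen after their values were seen. RTEL1 and CLUAP1 without HuR replicate 2 were likewise named for that fit. Members, lists and rules were chosen with earlier results of these data known. Samples with the same replicate number did not vary together (correlations of deviations -0.24 to 0.02), which does not exclude a pairing. IgG replicates 1 to 4 carry immunoprecipitation numbers 10, 11, 12 and 9, and HuR replicates 1 to 4 carry 13 to 16. Matched in the order of those numbers, the correlations were -0.036 to 0.39. The main fit used no pairing. No 2 arrays were duplicates; at most 11% of intensities were identical between arrays of a group. The number of arrays limits the precision.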

Additional observations from a re-analysis of the deposited data

Results flagged for a closer look

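In each group of 4 arrays, the highest or lowest value was set against the rest by Dixon's criterion, which chance exceeds in about 1 group in 20. Checked in both antibody groups were the number of detected probes, the highest and the median intensity, and the normalized values of the 11 called features. No correction was made for the number of checks. HuR replicate 2 exceeded it with 2592 detected probes and with its highest intensity of 6370. On the normalized log2 scale ACTB was low on HuR replicate 4, at 6.88, where HuR replicates 1 to 3 had 8.66 to 8.73. ITGB1 was low on the same array, at 4.90 against 7.62 to 8.10, and in the IgG arrays high on replicate 3, at 4.84 against 4.26 to 4.30. In intensity, before normalization, HuR replicate 2 stood apart instead, at 2756 for ACTB against 69 to 156 on the other HuR arrays. For ITGB1 that array read 1849, against 60 to 116. IgG replicate 1 was high for ITIH5, at 6.03 against 4.37 to 4.42 on the other IgG arrays, and for ANXA2P2, at 6.62 against 4.43 to 4.64. The causes were not tested.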

How the results depend on the processing

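The comparison gave 10 features higher and 1 lower with HuR. The counts were 35 and 9 with no background correction before quantile normalization, 51 and 0 with no scaling between arrays, and 0 and 0 with median centring and with plain log2 intensity over the array's median (124 at an unadjusted p under 0.05). They were 20 and 6 with detection required on all 4 arrays of an antibody, 4 and 1 with detection on any 1 array, 1 and 0 with no filter, 11 and 2 per probe, 38 and 9 with array weights, 47 and 9 with a trended robust prior, and 51 and 25 over all 16 arrays. With HuR replicate 2 left out they were 62 and 2 unscaled and 19 and 10 after median centring. The deposited scores of 7 arrays gave 0 and 0 (33 at an unadjusted p under 0.05). With the replicate number as a block, though samples of the same number did not vary together, they were 6 and 2. Leaving out each array in turn gave 7 to 46 higher and 1 to 5 lower: without HuR replicate 4 they were 46 and 4, without IgG replicate 1 they were 14 and 4, without IgG replicate 2 they were 9 and 5, and without HuR replicate 2 or IgG replicate 3 they were 10 and 2. The interaction gave 0, and 2 without HuR replicate 2. The difference in detected probes was 447.75 per array, and -21.25 without HuR replicate 2. The causes were not tested.

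Some signs turned. With no scaling, values were 0.46 for RPS29, 0.14 for RPL37A, 0.065 for RTN1, 0.14 for RPL27, 0.26 for RPL41, 0.045 for GAPDH, 0.25 for ATP5F1B and 0.24 for PTTG1. With median centring they were 0.23 for RPS29, 0.033 for RPL41, 0.025 for ATP5F1B and 0.014 for PTTG1. As plain log2 intensity over the median they were 0.40 for RPS29, 0.081 for RPL37A, 0.00846 for RTN1, 0.073 for RPL27, 0.21 for RPL41, 0.12 for ATP5F1B and 0.099 for PTTG1. The ribosomal protein median was 0.36, 0.13 and 0.30 under these 3 settings. RTN1 was 0.015 with HuR replicate 2 left out and no scaling. With 1 array left out, CCNA2 ran from -0.12 to 0.39, HNRNPK from -0.10 to 0.57 and PTTG1 from -0.43 to 0.045. Negative for CCNA2 were the fits without HuR replicate 4, IgG replicate 3 or IgG replicate 4. The sign of HNRNPK turned without HuR replicate 4, and that of PTTG1 without IgG replicate 4. The 8 named genes that rose stayed positive in every setting. Signal near background limits all these values.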
